A study of Mus musculus with 4 samples.

Results

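The 10 genes described here are those of the classical pathway and its immediate continuation, namely C1qa, C1qb and C1qc (the chains of C1q), C1ra, C1s1 and C2 (proteases), Serping1 (the inhibitor), C3, C4b and C6. All probe sets annotated to them were taken, which gave 12 of the 22690 probe sets of the arrays. A probe set is a group of short oligonucleotides read together as 1 signal. Of the 10 genes, 8 had a probe set of their own, and all 8 passed the filter on low signals described below. None passed it through the wild-type arrays alone, since the lowest of the 8 mean signals in FSP27-deficient WAT was 222. C4b was read only by a probe set that also names C4a, and C1ra had, beside its own, a probe set shared with C1rb. The symbol of C3 is on no probe set in the annotation used here, so that C3 was not analysed here.

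The complement system is a cascade of plasma proteins that marks microbes, dying cells and immune complexes for removal. In its classical pathway, C1q binds to a target and activates the proteases C1r and C1s that travel with it. C1s cuts C4 and C2, whose fragments together cut C3, and the later components starting with C5 and C6 then build a pore in the target's membrane. C1 inhibitor, encoded by Serping1, holds C1r and C1s in check. The liver makes much of the circulating complement, but tissues make their own as well. In mouse tissues C1q comes mainly from macrophages, while C1r, C1s and C1 inhibitor are also made by fibroblasts and other stromal cells. White adipose tissue (WAT) holds these cells between its adipocytes.

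The arrays compared FSP27-deficient with wild-type mice in their gonadal WAT. FSP27, encoded by Cidec, is a protein of the lipid droplet surface. Both genotypes were male C57BL/6J mice of 3 months. The Fsp27 knockout is the only difference in genotype or treatment that the labels give. RNA of 5 mice of each genotype was pooled, and each pool was hybridised in duplicate, giving 2 FSP27-deficient and 2 wild-type arrays. The duplicates are therefore repeat measurements of 1 pool, and every p-value below covers technical variation of the hybridization only, with no measure of how mice differ. With 4 arrays the smallest p that an exact permutation test allows is 0.333, so that the tests given come from limma, a linear model whose estimate of spread is shared across all genes. Signals were analysed as log2(signal + 16), a scale on which dim genes appear less changed than their signals are. Of the 12393 named genes, 8522 had a mean signal of at least 100 and were tested, each from its brightest probe set, and a gene was called at an adjusted p under 0.05 over all of them.

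The median signal of all probe sets was 181.1 and 164.8 in FSP27-deficient WAT and 192.8 and 172.4 in wild-type WAT. The log2 difference between duplicates had a standard deviation over genes of 0.64 for the FSP27-deficient pool and 0.46 for the wild-type pool. Cidec, the targeted gene, was 2.21-fold lower in FSP27-deficient WAT, at 8564 and 8949 against 20491 and 18255 in wild-type WAT (adjusted p = 5.7e-04). The sources used here do not say whether the probe set lies in the deleted part, and the value therefore is no check of the genotype. Of 9 adipocyte genes, 7 were tested and their signals summed to 232312 and 244659 in FSP27-deficient WAT against 186993 and 222134 in wild-type WAT.

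The genes of the 3 C1q chains lie side by side on chromosome 4, C1qc between C1qb and C1qa, and C1ra lies next to C1s1 on chromosome 6 (RefSeq, GRCm38.p6). Of the 10 genes, 6 had an upstream sequence in the RefSeq table used here, namely C1qb, C1qc, C1ra, C1s1, C3 and C6. The 250 bases before each start were searched on both strands for GAGGAA, a purine-rich core of the sites that ETS factors such as PU.1 bind in macrophages. It occurred in C1qb and C1qc, and these windows are shown because C1qb and C1qc are the macrophage-made chains whose signals are compared below with those of the proteases. Capitals mark the match, GAGGAA in C1qb and its reverse complement TTCCTC in C1qc. The windows are chr4:136886201-136886450 for C1qb and chr4:136892915-136893164 for C1qc, both on the minus strand.
C1qb: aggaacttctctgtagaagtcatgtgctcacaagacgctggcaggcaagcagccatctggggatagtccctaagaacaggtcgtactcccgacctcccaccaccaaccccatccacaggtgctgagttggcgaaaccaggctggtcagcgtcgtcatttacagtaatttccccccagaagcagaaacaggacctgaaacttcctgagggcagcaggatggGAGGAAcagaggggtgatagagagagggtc
C1qc: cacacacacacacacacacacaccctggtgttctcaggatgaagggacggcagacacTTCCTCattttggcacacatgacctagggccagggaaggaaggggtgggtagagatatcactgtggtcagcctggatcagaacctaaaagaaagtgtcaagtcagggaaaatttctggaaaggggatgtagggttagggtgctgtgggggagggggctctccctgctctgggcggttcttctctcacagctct
The match lay 30 to 25 bases before the start in C1qb and farther upstream in C1qc. These letters were not in the windows of C1ra, C1s1, C3 and C6. Of all 32851 windows of the same length, 23.25% held the motif on either strand, so that a match by itself is common.

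Complement genes of the classical pathway were lower in FSP27-deficient WAT. Of the 8 genes tested, limma called 7 lower and 0 higher, where 6.51% of all genes tested were called lower and 5.79% higher. Only C6 missed the threshold, with an unadjusted p of 0.025, and no gene of the 8 had a positive log2 fold change. By the fold criterion that the study used for its arrays, here a log2 ratio of the mean signals of 0.5 or more with the duplicates on the same side, all 8 were lower, against 20.6% of all genes tested. Both FSP27-deficient arrays lay below both wild-type arrays for all 8, which was so for 31.4% of all genes tested. Their median log2 fold change was -1.48, against -0.08 over all genes tested. The calls depend on letting limma's spread follow the signal. With 1 common spread limma called 0 of the 8 (adjusted p between 0.055 and 0.096 for the 7). The study's methods also name a two-tailed t-test, paired or unpaired, but do not tie it to the arrays. Its unpaired form, below the methods' test, called 0 after adjustment. The study's own text on these arrays names several of these genes as lower, so that the choice of genes is not independent evidence of their direction. By PCR on RNA of individual mice the study also reported lower C2 in FSP27-deficient WAT. It reported no difference in C2 between leptin-deficient mice with and without FSP27. In bulk tissue, fewer cells of a type and less RNA per cell cannot be told apart.

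**Figure D1:**
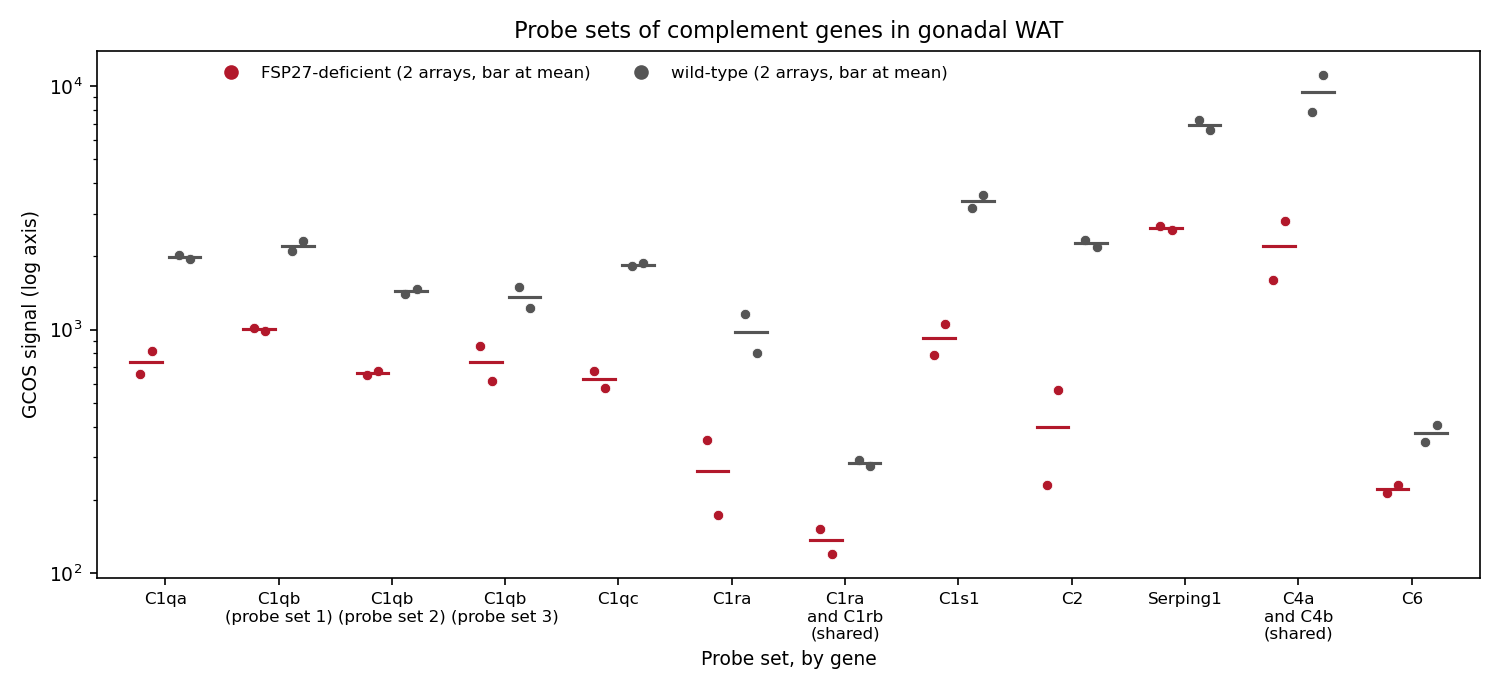
Signals of the 12 probe sets (log axis) on the 2 FSP27-deficient and the 2 wild-type arrays, with a bar at each mean. Both FSP27-deficient points lie below both wild-type points in every probe set. On this axis the gap between the mean bars is widest for C2 and narrowest for C6.

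C1qa, C1qb and C1qc encode the chains that assemble into the C1q molecule. All 3 were called lower in FSP27-deficient WAT, by 2.20-fold to 2.95-fold. C1qa had signals of 658 and 815 in FSP27-deficient WAT, against 2018 and 1960 in wild-type WAT (log2 fold change -1.42, standard error 0.20, adjusted p = 8.9e-04). C1qc had 677 and 577 in FSP27-deficient WAT, against 1828 and 1874 in wild-type WAT (log2 fold change -1.54, standard error 0.20, adjusted p = 4.9e-04). For both chains the gap between the genotypes was many times that between duplicates.

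C1qb was read by 3 probe sets. The brightest gave 1017 and 987 in FSP27-deficient WAT, against 2098 and 2305 in wild-type WAT (log2 fold change -1.12, standard error 0.19, adjusted p = 2.6e-03). Another gave 654 and 679 in FSP27-deficient WAT, against 1397 and 1476 in wild-type WAT (log2 fold change -1.09). The least changed gave 859 and 616 in FSP27-deficient WAT, against 1492 and 1228 in wild-type WAT (log2 fold change -0.88). The last 2 were called over the 14360 probe sets tested, of which 5.4% were called lower, with adjusted p = 5.2e-03 and adjusted p = 0.029 from limma. Their design may let them bind transcripts of related genes. In none of the 3 did a FSP27-deficient array reach a wild-type one.

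C1r and C1s are the serine proteases of the C1 complex, and in mice their main genes are C1ra and C1s1. C1s1 was 3.65-fold lower. It had 791 and 1056 in FSP27-deficient WAT, against 3146 and 3589 in wild-type WAT (log2 fold change -1.86, standard error 0.20, adjusted p = 1.5e-04). Its probe set may also bind transcripts of related genes, so that the value is uncertain as one of C1s1 alone. C1ra had 354 and 173 in FSP27-deficient WAT, against 1159 and 802 in wild-type WAT (log2 fold change -1.89, standard error 0.32, adjusted p = 2.6e-03). In proportion, the duplicates of C1ra differed more than those of C1s1 in both genotypes, yet the genotypes stayed apart. The probe set that C1ra shares with C1rb had 152 and 120 in FSP27-deficient WAT, against 293 and 277 in wild-type WAT. It was not called (log2 fold change -0.99, adjusted p = 0.11 over the probe sets).

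C2 is the protease that joins with C4 to form the classical C3 convertase. Its log2 fold change was the largest of the 8 genes tested, and its mean signal in FSP27-deficient WAT was 17.6% of that in wild-type WAT. C2 had 231 and 563 in FSP27-deficient WAT, against 2338 and 2187 in wild-type WAT (log2 fold change -2.59, standard error 0.32, adjusted p = 3.5e-04). The FSP27-deficient duplicates stood far from each other and still well below the wild-type ones. The size of the change rests on them, at -1.98 without replicate 1 and -3.20 without replicate 2 of the FSP27-deficient arrays, both called by limma.

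Serping1 encodes C1 inhibitor, the serpin that inactivates C1r and C1s. It was 2.66-fold lower, with 2656 and 2556 in FSP27-deficient WAT, against 7292 and 6580 in wild-type WAT (log2 fold change -1.40, standard error 0.17, adjusted p = 2.6e-04). The inhibitor was thus lower together with the proteases that it inhibits. The probe set shared by C4b, the gene of the C4 that C1s cuts, and its close relative C4a had 1597 and 2797 in FSP27-deficient WAT, against 7797 and 11144 in wild-type WAT. It was called lower (log2 fold change -2.13, standard error 0.26, adjusted p = 3.1e-04 over the probe sets), but the signal cannot be divided between the C4 genes. C6 belongs to the membrane attack complex. C6 had 214 and 230 in FSP27-deficient WAT, against 346 and 406 in wild-type WAT. The arrays of the genotypes did not overlap, but the difference did not pass the test over all genes (log2 fold change -0.72, 95% interval -1.33 to -0.10, adjusted p = 0.13). In all, limma called 10 of the 12 probe sets lower.

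Set in order of the log2 fold change, the genes ran C2, C1ra, C1s1, C1qc, C1qa, Serping1, C1qb and C6. The 95% intervals of every neighbouring pair overlapped, and the differences between neighbours were not tested. The largest of them, 0.70 between C2 and C1ra, had a standard error of 0.45. The median log2 fold change was -1.42 for the C1q chains, -1.89 for C1ra, C1s1 and C2, and -1.86 for all 5 genes tested other than the C1q chains. Without FSP27-deficient replicate 2 the median of the 5 genes was -1.41, against -1.43 for the C1q chains, so that this order is lost, while C1ra, C1s1 and C2 had a median of -2.06. With all arrays the protease had the larger change in each of the 9 pairs of a protease with a C1q chain. This held in 7 of the 9 without FSP27-deficient replicate 2, where C1ra changed less than C1qa and C1qc. With all arrays the intervals were apart in 2 of the 9 pairs, C2 with C1qa and C2 with C1qb, and overlap in the others is no test of their difference. Averaged over genes and set against the wild-type mean, the C1q chains stood at -1.37 and -1.36 in FSP27-deficient WAT and at -0.02 and 0.02 in wild-type WAT (log2). C1ra, C1s1 and C2 stood at -2.22 and -2.0 in FSP27-deficient WAT and at 0.07 and -0.07 in wild-type WAT. Relative to their wild-type means, the proteases thus fell further than the C1q chains, by 0.86 and 0.65 (log2) on the FSP27-deficient arrays. On the wild-type arrays the difference was 0.09 and -0.09, which centres on 0 by construction. The gap between the classes on the FSP27-deficient arrays was not tested. It is largest for C2, whose FSP27-deficient duplicates differed most.

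**Figure D2:**
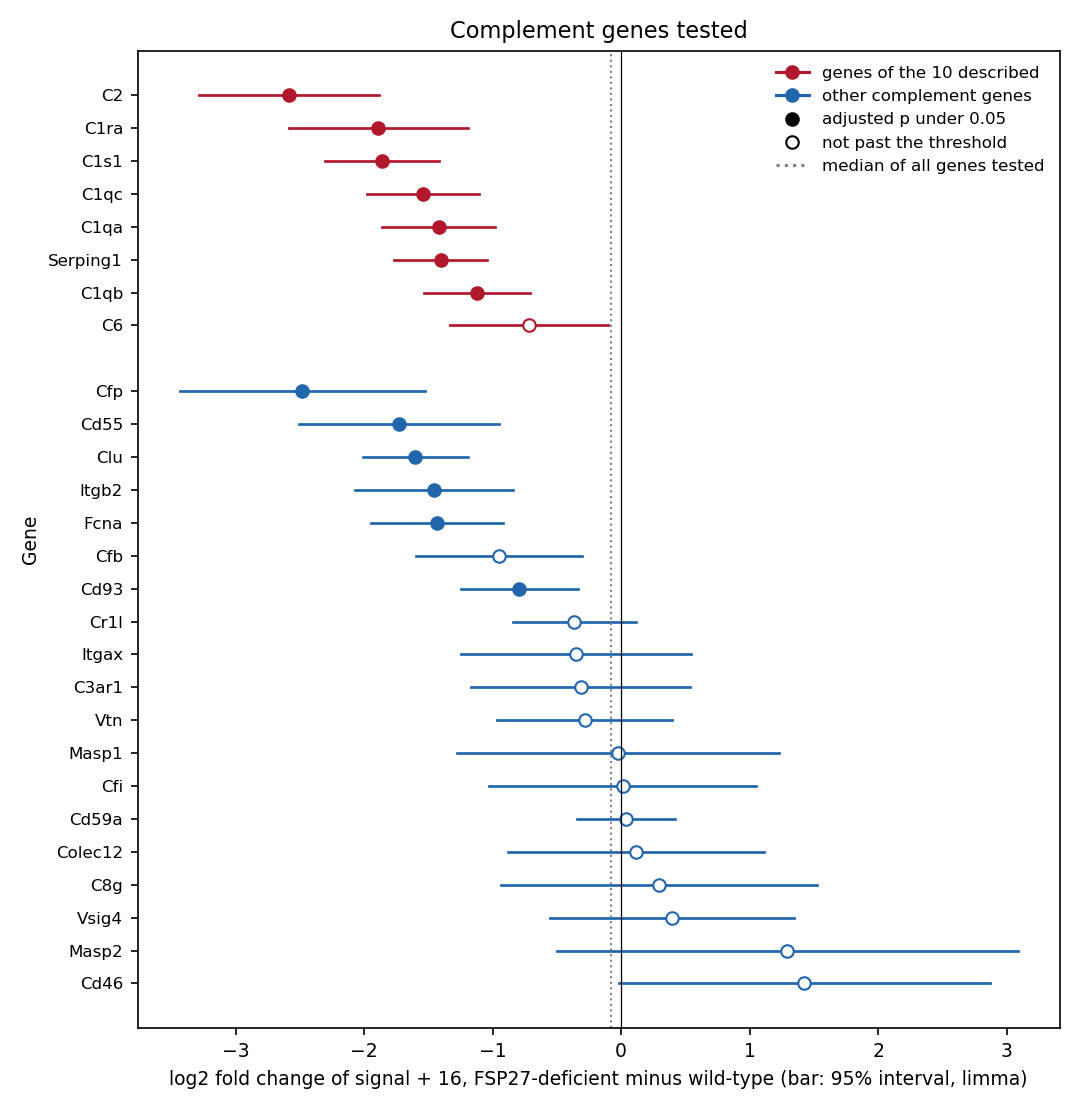
Log2 fold changes of signal + 16 (FSP27-deficient minus wild-type, x axis) with 95% intervals from limma, for the 8 genes tested of the 10 described and for 19 other complement genes. Filled points have an adjusted p under 0.05, and the dotted line marks the median of all genes tested at -0.08. Of the genes described, C6 alone is unfilled, while 13 of the other complement genes are unfilled and spread on both sides of the line.

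Complement genes outside these 10 had log2 fold changes from -2.48 to 1.43. Of 43 listed, 32 had a probe set of their own and 19 passed the filter. Among the 19, limma called 6 lower, 0 higher and 13 neither, with a median log2 fold change of -0.31. Of all genes tested, 6.51% were called lower and 5.79% higher. At an unadjusted p under 0.05 limma had 7 lower and 0 higher. Of the lectin pathway genes 1 of 4 was called, of the alternative pathway genes 1 of 2, of the fluid-phase regulators 1 of 3, of the membrane regulators 1 of 4, of the receptors 2 of 5, and of the later components 0 of 1. The listed relatives of the classical pathway genes, C1rb, C1rl, C1s2 and C4a, were not tested.

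Cfp encodes properdin, which stabilises the alternative C3 convertase. It had 43.6 and 75.2 in FSP27-deficient WAT, against 391 and 401 in wild-type WAT (log2 fold change -2.48, adjusted p = 3.2e-03), and it passed the filter only through its wild-type signals, those of FSP27-deficient WAT lying near the lower quartiles of their arrays, 55.9 and 53.8. Clu, the secreted regulator clusterin, had 931 and 1030 in FSP27-deficient WAT, against 2859 and 3167 in wild-type WAT (log2 fold change -1.60, adjusted p = 2.5e-04). Fcna, a ficolin that starts the lectin pathway, had 339 and 470 in FSP27-deficient WAT, against 1183 and 1030 in wild-type WAT (log2 fold change -1.43, adjusted p = 2.3e-03). In these 3 genes both FSP27-deficient arrays lay below both wild-type arrays. Itgb2, the common chain of the complement receptors of leukocytes, had a log2 fold change of -1.46 (adjusted p = 5.6e-03), and Cd93, a surface lectin first described as a C1q receptor, one of -0.79 (adjusted p = 0.027). Cd55, which speeds the decay of C3 convertases on cell surfaces, was called from its brightest probe set, at 128 and 86.8 in FSP27-deficient WAT against 397 and 378 in wild-type WAT (log2 fold change -1.73, adjusted p = 8.0e-03). Its other probe set had 138 and 279 in FSP27-deficient WAT against 253 and 240 in wild-type WAT and was not called, so that the probe sets disagree on Cd55. Cd93 also had a second probe set, at 170 and 203 in FSP27-deficient WAT against 105 and 115 in wild-type WAT (log2 fold change 0.68, adjusted p = 0.41 over the probe sets). Clu had 4 probe sets, all called lower. Clu and Fcna were called with any array left out. Cfp, Cd55 and Cd93 were not called without either of the wild-type arrays, Itgb2 was not called without wild-type replicate 1, and Cd93 was also lost without FSP27-deficient replicate 2.

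Cfb, the alternative pathway's counterpart of C2 and its neighbour on chromosome 17, was looked at after its values were seen. Cfb had 700 and 1531 in FSP27-deficient WAT, against 1884 and 2161 in wild-type WAT (log2 fold change -0.95, adjusted p = 0.057). As in C2, replicate 1 was the lower of the FSP27-deficient arrays, but for Cfb the difference did not pass the test.

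Markers of several cell types moved with these genes, and their part in the result was not tested. Macrophages are a main source of C1q. Of 20 macrophage markers, 18 were tested, and limma called 11 lower and 0 higher, against 6.51% lower and 5.79% higher of all genes tested. The median log2 fold change of the markers was -1.13. Their signals summed to 8437 and 9799 in FSP27-deficient WAT, against 21882 and 20609 in wild-type WAT. The most changed were Lyz2 (log2 fold change -1.77), the lysozyme of myeloid cells, Clec7a (-1.70), a receptor for fungal glucans, Tyrobp (-1.66), a signalling adaptor, the lysosomal protease Lgmn (-1.46), the haemoglobin scavenger receptor Cd163 (-1.43) and Cd68 (-1.34). Adgre1, which encodes the macrophage antigen F4/80 and was picked out after its values were seen, had 354 and 521 in FSP27-deficient WAT, against 727 and 495 in wild-type WAT, and was not called (adjusted p = 0.33). Cx3cr1 and Marco lay below the filter in both genotypes. Without wild-type replicate 1, 6 of the 18 were called, and without wild-type replicate 2 also 6. Of the genes named, Clec7a lost its call without either wild-type array, and Cd163 and Cd68 lost theirs without wild-type replicate 2. On the FSP27-deficient arrays the C1q chains stood 0.12 and 0.46 further below wild-type than the mean of the macrophage markers. The gap was larger on replicate 2, where the markers were less changed.

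Stromal markers moved with these genes as well. For the counts that follow, limma called 6.51% of all genes tested lower and 5.79% higher. Of 15 fibroblast and preadipocyte markers, 14 were tested, and limma called 6 lower and 0 higher, namely Mfap5 (log2 fold change -1.91), Col3a1 (-0.90), Col1a1 (-0.87), Col1a2 (-0.83), Dcn (-0.75) and Dpt (-0.66). These encode a microfibril protein, collagen chains and matrix proteoglycan or binding proteins. Other probe sets of these genes differed in size. Tested over all probe sets, those of Col3a1 (-1.83), Mfap5 (-1.36) and Col1a2 (-1.33) were called lower, and that of Col1a1 (-0.44) was not. Dpt from its own probe set missed the threshold there (adjusted p = 0.055 from limma). The list had a median of -0.65, and its signals summed to 62478 and 85117 in FSP27-deficient WAT, against 98174 and 93668 in wild-type WAT. Gsn, its brightest gene and not lower (log2 fold change 0.01), weighs most in these sums. Gsn had 32555 and 51049 in FSP27-deficient WAT, against 41832 and 39049 in wild-type WAT. Without wild-type replicate 1 the count was 2, Mfap5 and Col3a1, and without wild-type replicate 2 it was 4, with Dcn and Dpt lost. Dpt was not called without FSP27-deficient replicate 1 either. Mesothelial cells line the surface of gonadal fat. Of 8 mesothelial markers 6 were tested and 3 called lower, Msln (-2.17, with a mean under the filter in FSP27-deficient WAT), Upk3b (-1.70) and Krt8 (-1.0), with a median of -1.06 and sums of 2013 and 1570 in FSP27-deficient WAT, against 4486 and 4534 in wild-type WAT. Upk3b alone was called without wild-type replicate 1, Msln was lost without either wild-type array, and Krt8 was also lost without FSP27-deficient replicate 2. All 8 endothelial markers were tested and only Pecam1 was called lower (-0.94), with a median of -0.48 and sums of 5254 and 5583 in FSP27-deficient WAT, against 6769 and 7683 in wild-type WAT. The call of Pecam1 held only without FSP27-deficient replicate 2 and was lost without each of the other 3 arrays (adjusted p between 0.063 and 0.12). Of the 7 adipocyte markers tested only the hormone gene Lep was called, lower by 1.33 on the log2 scale, and the list's median was 0.22. Of 8 hepatocyte markers 2 were tested and 0 were called by limma, nor did any have an unadjusted p under 0.05, with Apoa1, Ttr, Fgb and Ahsg below the filter and sums of the tested ones of 317 and 390 in FSP27-deficient WAT, against 360 and 390 in wild-type WAT.

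**Figure D3:**
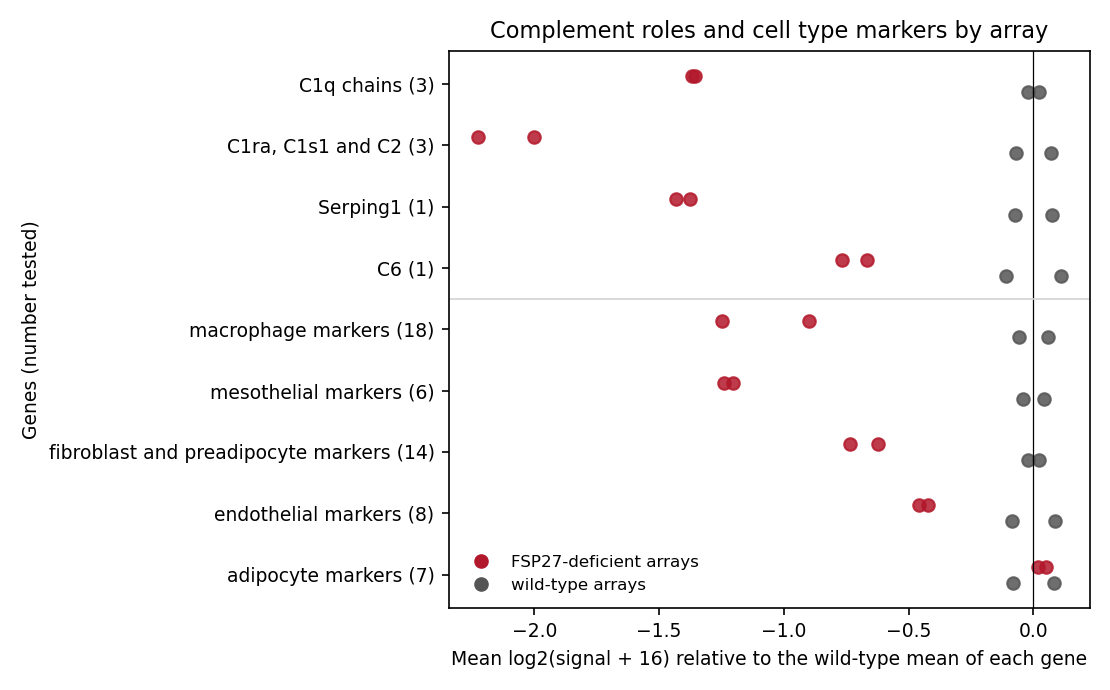
Mean log2(signal + 16) of each gene class or marker list on each array, relative to the wild-type mean of each gene (x axis), for the 2 FSP27-deficient and the 2 wild-type arrays, with the number of genes tested in brackets. C1ra, C1s1 and C2 stand furthest to the left, at -2.22 and -2.0, while the mean of the adipocyte markers is near 0, at 0.02 and 0.05. That mean combines Lep (log2 fold change -1.33) with 6 genes of positive log2 fold change, and the list's median is 0.22.

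Of the lists plotted by array, the mesothelial markers stood at -1.20 and -1.24 on the FSP27-deficient arrays, the macrophage markers at -1.25 and -0.90 and the fibroblast and preadipocyte markers at -0.73 and -0.62. The macrophage markers were lower on FSP27-deficient replicate 1 than on replicate 2, and so was the mean of the proteases, although C1ra ran the other way. The C1q chains were on average level between the duplicates.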

How the data were processed

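Equal amounts of gonadal WAT RNA of 5 mice of each genotype were pooled and hybridised in duplicate to Affymetrix arrays. The authors processed the arrays with GCOS, Affymetrix's operating software, and deposited 1 linear intensity per probe set and array. Version and scaling target: not given in the sources used here. Precision is limited by the number of arrays, and any statement on the genotypes by the 1 pool of each.

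Beside 64 control probe sets, the platform annotation gives 20380 probe sets 1 symbol, 691 several and 1555 none. After addition of 16 and log2 transformation, limma 3.58.1 under R 4.3.3 was used (lmFit, eBayes with a trend on the signal, Benjamini-Hochberg adjustment), FSP27-deficient minus wild-type. Residual degrees of freedom were 2, or 12.1 in all once the prior was added. The steps were tested on simulated data whose spread was made to follow the mean signal, so that the use of the trend itself was not tested. Probe sets naming several genes were tested only over all probe sets.

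The genes and the 11 marker and complement lists were chosen with earlier results of these data known. Named were the 10 genes, Cidec and, from each list, every gene called or the 6 most changed of those called, with exceptions stated. Alternatives tried were other pseudocounts (1 and 64), no filter, a minimum of 200, quantile normalization, median centring, other rules for probe sets, no trend, the methods' unpaired two-tailed test, a replicate block and each array left out, with probe sets and filter kept.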

Additional observations from a re-analysis of the deposited data

How the results depend on the processing

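No fold change of the 8 genes tested changed direction under any alternative, but the order of the classes did. Without FSP27-deficient replicate 2 the C1q chains had a median of -1.43 and the other 5 genes tested one of -1.41. The calls depend on the trend of the spread with the signal. Without the trend limma called 0 of the 10 genes, 0 other complement genes and 1 gene of all, of 1860 with an unadjusted p under 0.05. The adjusted p of the 7 genes called ran between 0.055 and 0.096 in that setting, against at most 2.6e-03 with the trend. The methods' test after adjustment called 0 of the 10 genes, 0 other complement genes and 0 of all, of 1309 with an unadjusted p under 0.05. In the other 14 settings 7 of the 8 genes tested were called lower and C6 was not, and under the fold criterion all 8 were lower in each of 11 settings. Leaving out 1 array at a time kept 7 genes called, and gave 2 to 6 other complement genes and 405 to 1376 genes of all (1048 with all arrays, 405 without wild-type replicate 1 and 469 without wild-type replicate 2), where a lone array is taken to be as variable as its counterparts. The median log2 fold change of the C1q chains was -1.37 with a pseudocount of 64, -1.39 after quantile normalization, -1.35 with each array centred on its median and -1.44 to -1.27 with 1 array left out. That of the other genes tested was -1.71 with a pseudocount of 64 and -1.77 to -1.41 with 1 array left out. The cause was not tested. Duplicates of the same number deviated together only weakly over genes (correlation 0.07), which cannot settle whether the numbers pair the arrays. With the replicate block the same number of the 10 genes, 7, was called, with 831 genes lower and 634 higher of all, and adjusted p = 0.10 for C6.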

Other observations

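Marker lists of other cells that a fat pad could hold gave few tested genes. Over all genes tested, limma called 6.51% lower and 5.79% higher. Of 8 neutrophil markers 4 were tested, with a median log2 fold change of 0.40. Prtn3, a protease of neutrophil granules, was called lower. It had 14.3 and 21.9 in FSP27-deficient WAT against 207 and 750 in wild-type WAT (adjusted p = 6.7e-03 from limma). Mpo (1.59), S100a8 (0.51) and Ngp (0.29) had positive log2 fold changes and were not called. The wild-type mean of Mpo lay under the filter. Prtn3 passed the filter only through its wild-type signals, and the call is lost without wild-type replicate 2 (adjusted p = 0.61). Of 10 T cell and B cell markers 2 were tested, and Ighm, the heavy chain of IgM, the antibody class that binds C1q most readily, was called higher, with 28052 and 22555 in FSP27-deficient WAT against 12190 and 13667 in wild-type WAT (log2 fold change 0.96, adjusted p = 2.6e-03). A second probe set of Ighm was also called higher (log2 fold change 0.61) and 3 dim ones were not called. Of 5 blood and 8 epididymis markers, 1 and 2 were tested and limma called 0, with 0 at an unadjusted p under 0.05.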
